A study of Mus musculus with 70 samples.

Results

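ST2- CD44hi Tregs of the colon were compared with ST2- CD44hi Tregs of abdominal visceral adipose tissue (VAT) of the same mice. All libraries whose labels gave either of these populations and whose total was over 1000000 counts were used, which gave 5 colon and 5 VAT libraries, or 10 of the 70 libraries deposited and of the 67 that passed this minimum. None of the 10 was left out. The donors were 5 male Foxp3-YFP-cre mice, which carry Foxp3tm4(YFP/icre)Ayr on a B6.129(Cg) background, aged 16.6 to 18.6 weeks, and each mouse gave 1 library of each population, so mouse 1 to mouse 5 name the same animals in both tissues. All groups carry the same Foxp3 allele, in which YFP and Cre are made wherever Foxp3 is active, and no group was treated. The cells were sorted as YFP+ CD4 T cells that stained high for CD44 and lacked surface ST2, the receptor for IL-33. Each colon library came from 220 sorted cells, whereas the VAT libraries of mice 1 to 5 came from 220, 93, 192, 118 and 135 cells. In bulk RNA of such small sorts, a change in the number of cells of a type and a change in RNA per cell cannot be told apart. Per the study's methods, colon was incubated warm with DTT and EDTA before the collagenase digestion that both tissues received. Tissue and preparation therefore cannot be told apart.

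Tregs are CD4 T cells that restrain immune responses, and the transcription factor FOXP3 maintains their program. Tregs of nonlymphoid tissues are mostly effector Tregs, which have high CD44 and adjust their chemokine receptors, cytokines and metabolism to the tissue in which they reside. Colonic Tregs are known for IL-10 production and for a subset that depends on the microbiota, whereas VAT Tregs are known for PPARG, lipid handling and, in most cells, ST2. The comparison here asked how the Tregs that lack ST2 differ between these tissues.

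The colon libraries held 1592181 to 2338195 counts (median 1701012) and the VAT libraries 1532998 to 2759926 (median 2010831). Between 13960 and 17193 genes had a count in the colon libraries and between 11877 and 15273 in the VAT libraries, with the lowest number in the library of 93 cells. Levels are given as CPM, the counts per 1000000 after scaling between libraries with TMM factors. The sort was visible in the RNA. Foxp3 was at 197 to 232 CPM in colon and 128 to 188 CPM in VAT, and Il1rl1, which encodes ST2, was at 0 to 60.8 CPM in colon and 8.51 to 22.9 CPM in VAT, while its mean was 612 ± 76.2 CPM (SD, n = 3) in the ST2+ CD44hi Tregs of colon and 1222 ± 118 CPM (SD, n = 5) in those of VAT.

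Transcripts of other cell types were present and were not evenly spread. The summed level of 8 goblet cell markers was 19.7, 3278, 455, 25.2 and 124 CPM in the colon libraries of mice 1 to 5 and at most 1.12 CPM in VAT. For 20 markers of colon epithelium the colon sums were 83.4, 3251, 435, 139 and 319 CPM and the VAT sums 93.1 to 166 CPM, where most of the VAT signal was Epcam (70.2 to 157 CPM) and 15 of the 20 markers had no count in any VAT library. The colon library of mouse 2 was thus far above the others in epithelial RNA. The sums of mice 1 and 4 lay near those of VAT, but 7 and 9 of the 20 markers had counts there, against 2 to 4 in the VAT libraries. For B and plasma cells (10 markers) the sums were 1322 to 2094 CPM in colon and 74.1, 28.7, 1079, 33.5 and 64.1 CPM in VAT, so the VAT library of mouse 3 stood apart from the other VAT libraries. Fibroblast and endothelial markers summed to 97.9, 1387, 653, 820 and 69.7 CPM in colon and 179, 83.4, 749, 102 and 117 CPM in VAT. Macrophage and dendritic cell markers summed to 499 to 1962 CPM in colon and 176 to 900 CPM in VAT, and these ranges overlapped. Of 10 adipocyte markers, 6 had no count in any colon library and 4 none in any VAT library. The immunoglobulin gene Igha, which is not protein-coding in the annotation and was not tested, was at 1221, 1436, 1507, 1026 and 1365 CPM in colon and 9.57, 19.1, 8.37, 2.79 and 6.62 CPM in VAT. Every colon library was above every VAT library. How much of each difference given below came with these other cells was not tested, and the marker values are repeated where they moved with a result.

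**Figure D1:**
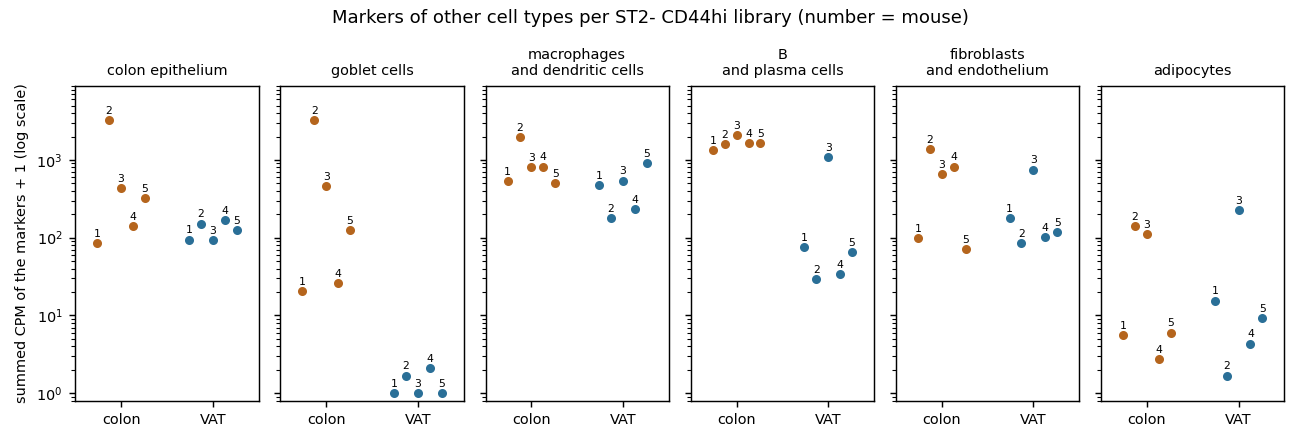
Summed CPM of marker genes of other cell types in each ST2- CD44hi library, plus 1 on a log axis, with 1 point per library and its mouse number. Goblet and epithelial markers were highest in the colon library of mouse 2 (3278 and 3251 CPM), and B and plasma cell markers were high in all colon libraries and in the VAT library of mouse 3 (1079 CPM).

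Of 13173 protein-coding genes tested with the quasi-likelihood test of edgeR, 228 (1.73%) were differentially expressed genes (DEGs). For this a gene had to change 1.5-fold or more and keep a p of 0.05 or less after Benjamini-Hochberg adjustment. In colon 142 genes were higher (1.08% of those tested), and in VAT 86 genes were higher (0.653%). At an unadjusted p under 0.05 there were 1965 genes. The median fold was 4.98 for genes higher in colon and 2.03 for genes higher in VAT, and 38 of the 142 had no count in any VAT library, while none of the 86 was at 0 in all colon libraries. In 83 of the 142 all 5 colon libraries were above all 5 VAT libraries (1.94% of all tested genes showed this order), and in 48 of the 86 the reverse held (1.15% of all tested genes). Within mice, 108 of the 142 were higher in the colon of all 5 animals (6.36% of all tested genes) and 74 of the 86 higher in the VAT of all 5 (5.33%).

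The number of DEGs depended on single libraries. Without the colon library of mouse 2, which was high in epithelial RNA, 86 genes were higher in colon, 85 of them among the 142, and 46 genes were higher in VAT, 43 of them among the 86. When the VAT library of mouse 3, high in plasma cell RNA, was left out, 114 and 65 genes passed, of which 84 and 60 were among the DEGs above. With the colon libraries of mice 1 and 4 alone, those lowest in epithelial RNA, 27 genes were higher in colon and 14 in VAT. Of the 49 named genes called higher in colon, 36 were called in each of the 10 fits that left out 1 library, and of the 35 called higher in VAT, 20 were. With the colon libraries of mice 1 and 4 alone, 19 and 9 kept the call. With epithelial and plasma cell markers as covariates, 8 and 6 did. Il10 (adjusted p 0.158), Ccr1 (0.0709), Klf7 (0.269) and S1pr1 (0.0888) were among those that did not pass with the covariates. These markers differ between the tissues, so that fit cannot tell marker and tissue apart.

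Among the DEGs higher in colon, the smallest adjusted p belonged to Foxo1 (GRCm38 chromosome 3, 52268336 to 52353221), a transcription factor that keeps resting T cell and homing genes active. Foxo1 was at 370.3, 345, 376, 384 and 386 CPM in the colon libraries of mice 1 to 5 and at 217, 167, 181, 154 and 166 CPM in VAT. The colon libraries were nearly equal, and the lowest of them was above the highest of VAT. The means were 372 ± 16.6 and 177 ± 24.2 CPM (SD, n = 5 and 5), a log2 difference of 1.07 (SE 0.14, adjusted p 7.1e-07). Foxo1 was called in every alternative tried, including the fit with the markers of epithelial and plasma cells as covariates (log2 1.09, adjusted p 0.00856).

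Pde4b (chromosome 4, 102087543 to 102607259), a phosphodiesterase that degrades cyclic AMP, was at 440.4, 584, 423, 467 and 448 CPM in colon and 242, 187, 223, 175 and 165 CPM in VAT. The groups did not overlap, and the colon library of mouse 2 was above the other 4. Its log2 difference was 1.25 (SE 0.19, adjusted p 2.69e-05), and it too was called under every alternative. Further DEGs higher in colon were Klf7, a Krüppel-like transcription factor (87.8 ± 14.7 against 26.5 ± 10.5 CPM, log2 1.73, adjusted p 4.35e-05), Rrad, a GTPase that inhibits calcium channels (279 ± 65.7 against 125 ± 23 CPM, log2 1.16, adjusted p 2.87e-05), and Ralgps2, an exchange factor for Ral GTPases (99.6 ± 32.7 against 29.2 ± 11.5 CPM, log2 1.77, adjusted p 5.7e-05). For all of these the lowest colon library was above the highest VAT library. Rasgrp3, an exchange factor for Ras, was at 45.8, 57, 54.3, 27 and 7.54 CPM in colon and had no count in any VAT library. It was at least 125-fold higher in colon, counting the floor as 3 counts over the VAT group, but it kept its call in only 3 of the 10 fits that left out 1 library (adjusted p up to 0.0648).

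Lgmn (chromosome 12, 102394084 to 102439813), which encodes the lysosomal protease legumain, was at 313, 120.4, 135, 33.9 and 109 CPM in colon and 12.1, 10.3, 13.8, 2.79 and 8.14 CPM in VAT. The colon library of mouse 1 was highest and that of mouse 4 lowest, still above all VAT libraries. The log2 difference was 3.90 (SE 0.60, adjusted p 2.87e-05). Furin, the convertase that cleaves the precursor of TGF-beta among other substrates, was at 154, 79.4, 114, 60 and 82.3 CPM in colon and 20.2, 9.57, 9.85, 33.5 and 27.5 CPM in VAT, without overlap (log2 2.27, SE 0.39, adjusted p 0.000186). Prg4, which encodes the lubricant glycoprotein lubricin, was at 159 ± 52.8 CPM in colon and 22.3 ± 13.4 CPM in VAT (SD, n = 5 and 5), also without overlap (log2 2.82, adjusted p 6.59e-05). The uncharacterised gene 4930503L19Rik was at 180.1 to 414 CPM in colon and 63.6 to 117 CPM in VAT (log2 1.70, adjusted p 5.23e-05). Adamdec1, a metalloprotease of the gut mucosa, followed another order. It was at 0.579, 176, 95.3, 261 and 6.28 CPM in colon and above 0 in VAT in mouse 4 only, and its high colon libraries (mice 2, 3 and 4) were also those with the highest sums of the fibroblast and endothelial markers, a list that holds Adamdec1 itself (adjusted p 3.74e-05).

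**Figure D2:**
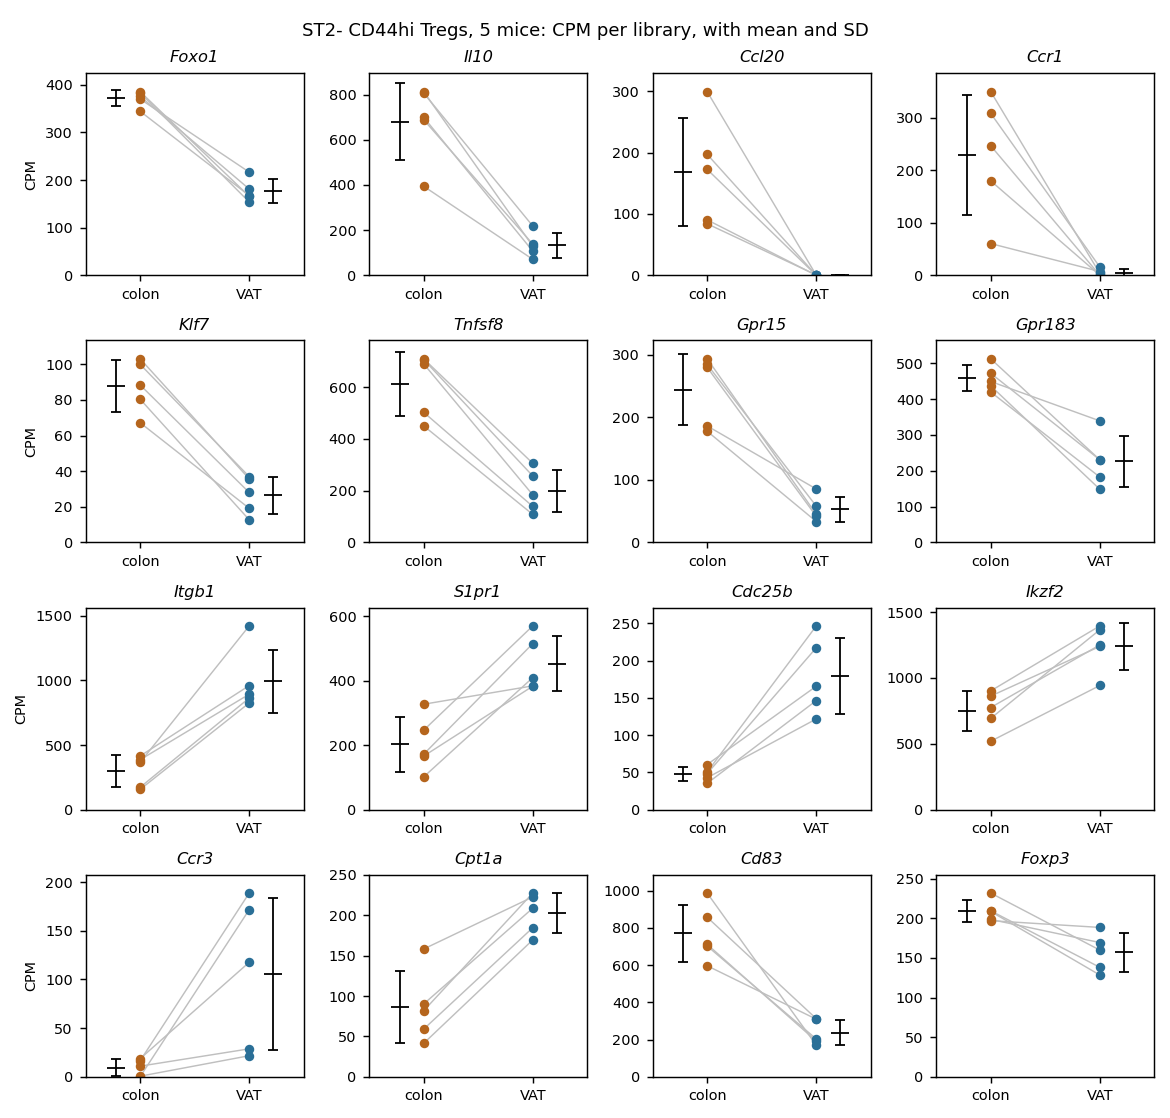
CPM of single genes in the 5 colon and 5 VAT libraries of ST2- CD44hi Tregs, with 1 point per library, grey lines joining the libraries of 1 mouse, and the mean and SD beside them. Foxo1 was at 345 to 386 CPM in colon and 154 to 217 CPM in VAT, and Itgb1 at 156 to 414 and 826 to 1422 CPM, so neither gene overlapped between the tissues.

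Genes of homing and retention changed in both directions. Of 29 receptors, integrins and regulators of migration on the list, 7 were higher in colon and 3 higher in VAT. The shares over all tested genes were 1.08% and 0.653%. The median log2 difference was 0.25 beside 0.03 over all tested genes. Gpr15, a receptor that directs T cells to the large intestine, was at 294, 186, 280, 178 and 285 CPM in colon and 45, 85.5, 41.9, 33.5 and 58 CPM in VAT. All colon libraries were above all VAT libraries, and the log2 difference was 2.22 (SE 0.52, adjusted p 0.00964). Gpr183, the oxysterol receptor EBI2, was at 419.7 to 512 CPM in colon and 148 to 339 CPM in VAT (log2 1.02, adjusted p 0.00234). Gpr55, a receptor for lysophosphatidylinositol, was at 74.2, 82, 67.5, 65.2 and 119 CPM in colon and 2.13, 38.3, 7.39, 8.36 and 5.09 CPM in VAT, and the VAT library of mouse 2 was far above the other VAT libraries (log2 2.80, adjusted p 0.0195, called in 6 of the 10 fits without 1 library, adjusted p up to 0.0641). Ccr6, the receptor for CCL20, was at 336, 354, 375, 278 and 464 CPM in colon and 172, 103, 70.9, 90.3 and 58 CPM in VAT, without overlap (log2 1.86, SE 0.52, adjusted p 0.0397). It kept its call in only 2 of the 10 fits without 1 library (adjusted p up to 0.108), and Ccr10, which binds CCL27 and CCL28 (log2 4.31, adjusted p 0.0411), in 3 of 10 (adjusted p up to 0.111). Ccr9, the receptor for small intestinal homing, was at 135, 104, 160.2, 141 and 276 CPM in colon and 0, 23.9, 39.9, 0 and 10.7 CPM in VAT, and although the groups did not overlap it did not pass the test (log2 3.46, adjusted p 0.0857).

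The DEG with the smallest adjusted p of the whole comparison was Itgb1 (chromosome 8, 128685654 to 128733200), the integrin beta-1 chain that pairs with many alpha chains to bind extracellular matrix. Itgb1 was at 156, 365, 414, 386 and 172 CPM in colon and 826, 1422, 960.1, 893 and 864 CPM in VAT. Every VAT library was above every colon library, and the VAT library of mouse 2, that with the fewest cells, was highest. The log2 difference (colon minus VAT) was -1.73 (SE 0.21, adjusted p 1.82e-07), and it was called under every alternative. Its partners on the list did not pass: Itga4 was at 389.8 ± 125 CPM in colon and 573 ± 97.6 CPM in VAT (log2 -0.56, adjusted p 0.26), Itga1 at 35.4 ± 29.1 and 65.7 ± 52.1 CPM (adjusted p 0.78), and Itgb7, the alternative partner of alpha-4 in gut homing, at 868 ± 132 and 877 ± 105 CPM (log2 -0.01, adjusted p 0.98).

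S1pr1 encodes the receptor through which lymphocytes leave tissues along sphingosine-1-phosphate. It was at 166, 246, 171, 327 and 101 CPM in colon and 383, 569, 515, 384 and 409 CPM in VAT, with all VAT libraries above all colon libraries (log2 -1.16, SE 0.19, adjusted p 9.39e-05). S1pr4, a related receptor, was at 16 to 46.9 CPM in colon and 49.9 to 86.2 CPM in VAT, also without overlap (log2 -1.44, adjusted p 0.00422). Klf2, a transcription factor known to act downstream of FOXO1 and to activate S1pr1, moved the other way. It was at 305, 340.1, 301, 277 and 185 CPM in colon and 104, 222, 222, 151 and 119 CPM in VAT, and the colon libraries of all 5 mice were above the VAT library of the same mouse, although the colon library of mouse 5 was below the VAT libraries of mice 2 and 3 (log2 0.79, SE 0.17, adjusted p 0.00306). Cd69, whose protein holds S1PR1 inside the cell, was at 1055, 1280.3, 1501, 1144 and 1422 CPM in colon and 308, 658, 696, 841 and 812 CPM in VAT (log2 0.95, SE 0.23, adjusted p 0.0118). The groups did not overlap, the VAT library of mouse 1 was lowest, and without that library Cd69 no longer passed (adjusted p 0.06). In the spleen ST2- CD44hi Tregs of the same mice, the means were 382 ± 26 CPM for S1pr1, 131 ± 18.1 CPM for Klf2, 288 ± 24.6 CPM for Foxo1 and 634 ± 82 CPM for Itgb1 (SD, n = 5). The S1pr1 means of blood, lungs and skin ST2- CD44hi Tregs were 836 ± 97.8, 904 ± 60.9 and 157 ± 41.7 CPM (SD, n = 5 each). Their Itgb1 means were 852 ± 165, 1165.5 ± 78.8 and 284 ± 58.2 CPM.

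Chemokine transcripts differed sharply. Ccl20 (chromosome 1, 83116766 to 83119167), the ligand of CCR6, was at 299.6, 197, 84.1, 90.5 and 173 CPM in colon, while VAT held a single count, in mouse 3. The colon libraries of mice 1 and 2 were highest. Of the colon libraries, mouse 1 had the lowest epithelial sum and mouse 2 the highest, and which cells made Ccl20 was not tested. The adjusted p was 1.24e-05, and Ccl20 was called in all 10 fits without 1 library (adjusted p up to 0.000144). Ccr1, an inflammatory chemokine receptor, was at 247, 180, 308, 60.5 and 350 CPM in colon and 0, 0, 15.8, 7.25 and 3.56 CPM in VAT. No VAT library reached the lowest colon library, that of mouse 4 (log2 5.42, SE 0.82, adjusted p 2.87e-05). Ccr3, the eotaxin receptor, went the other way, at 0.579, 10.9, 18.5, 0 and 16.3 CPM in colon and 21.6, 28.7, 118, 172 and 189 CPM in VAT (log2 -3.55, SE 0.75, adjusted p 0.00353). Ccl5, a chemokine of activated and cytotoxic T cells, was at 26.1, 46.8, 108, 41.8 and 84.8 CPM in colon and 148, 308, 275, 347 and 289 CPM in VAT (log2 -2.15, SE 0.54, adjusted p 0.0182). Both were lower in every colon library than in any VAT library, but Ccl5 lost its call without the colon library of mouse 1 (adjusted p 0.061) or mouse 2 (adjusted p 0.0629). Cxcr3 was at 177 to 321 CPM in colon and 494 to 631 CPM in VAT and did not pass the test (log2 -1.10, adjusted p 0.135), although the groups did not overlap.

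Of 35 tested cytokines and suppressive effectors, 5 were higher in colon and 1, Ccl5, higher in VAT, beside 1.08% and 0.653% of all tested genes (median log2 difference 0.08). Il10 (chromosome 1, 131019845 to 131024974), the suppressive cytokine of intestinal Tregs, was at 700, 813, 689, 394 and 807 CPM in colon and 107, 129, 138, 70.8 and 218 CPM in VAT. Every colon library was above every VAT library, with mouse 4 lowest in both tissues. The means were 681 ± 170.3 and 133 ± 54.5 CPM (SD, n = 5 and 5), a log2 difference of 2.36 (SE 0.36, adjusted p 2.87e-05). Havcr2, the inhibitory receptor TIM-3, was at 122, 117, 82.8, 69.6 and 176 CPM in colon and 4.26, 2.05, 18.2, 0 and 3.05 CPM in VAT (log2 4.32, SE 0.85, adjusted p 0.00159). Nt5e, the enzyme CD73 that makes adenosine, was at 539.5 to 775 CPM in colon and 184 to 494 CPM in VAT (log2 1.09, adjusted p 0.00354), and Tnfsf8, the ligand of CD30, at 451 to 710 and 108 to 306 CPM (log2 1.62, adjusted p 0.00422). None of these overlapped between the tissues. Il4 was low in both tissues (1.74 to 40.2 and 0 to 1.42 CPM, adjusted p 0.0301) and kept its call in 4 of the 10 fits without 1 library (adjusted p up to 0.0871). Gzmb (512 ± 177 and 190.3 ± 66.2 CPM, adjusted p 0.161), Areg (236 ± 72.7 and 245 ± 95.9 CPM, adjusted p 0.981) and Fgl2 (438 ± 134 and 365 ± 123 CPM, adjusted p 0.806) did not pass. Icos, a costimulatory receptor, had an adjusted p of 0.0327 but a fold below 1.5 (log2 0.58), and with mouse as a replicate block it was a DEG (adjusted p 0.00917). It was also a DEG without colon mouse 1 (adjusted p 0.0483), colon mouse 4 (adjusted p 0.0181), VAT mouse 2 (adjusted p 0.0249) or VAT mouse 4 (adjusted p 0.0421).

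Most genes tied to type 17 responses had a higher mean in colon, and most did not pass the test. Of 19 tested members, 2 (10.5%) were called higher in colon (Ccl20 and Ccr6) and 0 in VAT, beside 1.08% and 0.653% of all tested genes. In 6 all colon libraries were above all VAT libraries (1.94% of all tested genes). A log2 difference above 0 was seen in 18 (52.7% of all tested genes), and the median was 1.25. At an unadjusted p under 0.05 there were 9, and voom with quality weights called 9 and DESeq2 3. Il23r, the receptor that sustains type 17 cells, was at 30.7, 21.1, 27.8, 9.13 and 70.4 CPM in colon and had counts in 1 VAT library (mouse 1), without which its adjusted p of 0.101 became 0.027. Tmem176a (245 to 346 and 5.67 to 139 CPM, log2 1.87, adjusted p 0.0691), Ahr (179 ± 64 and 74.7 ± 40.1 CPM, log2 1.25, adjusted p 0.116), Irf4 (253 ± 31.5 and 83 ± 57.7 CPM, log2 1.60, adjusted p 0.154) and Maf (477 ± 107 and 321 ± 82 CPM, log2 0.57, adjusted p 0.337) had higher means in colon and did not pass. Ahrr, the repressor and target of the aryl hydrocarbon receptor, did. It was at 35.9, 28.2, 68.8, 23.9 and 28.9 CPM in colon and at 0 in every VAT library, at least 120.2-fold higher against a floor of 3 counts (adjusted p 0.0118). It was the only DEG of 13 tested retinoid, vitamin D and aryl hydrocarbon genes (7.69% higher in colon, beside 1.08% of all tested genes).

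**Figure D3:**
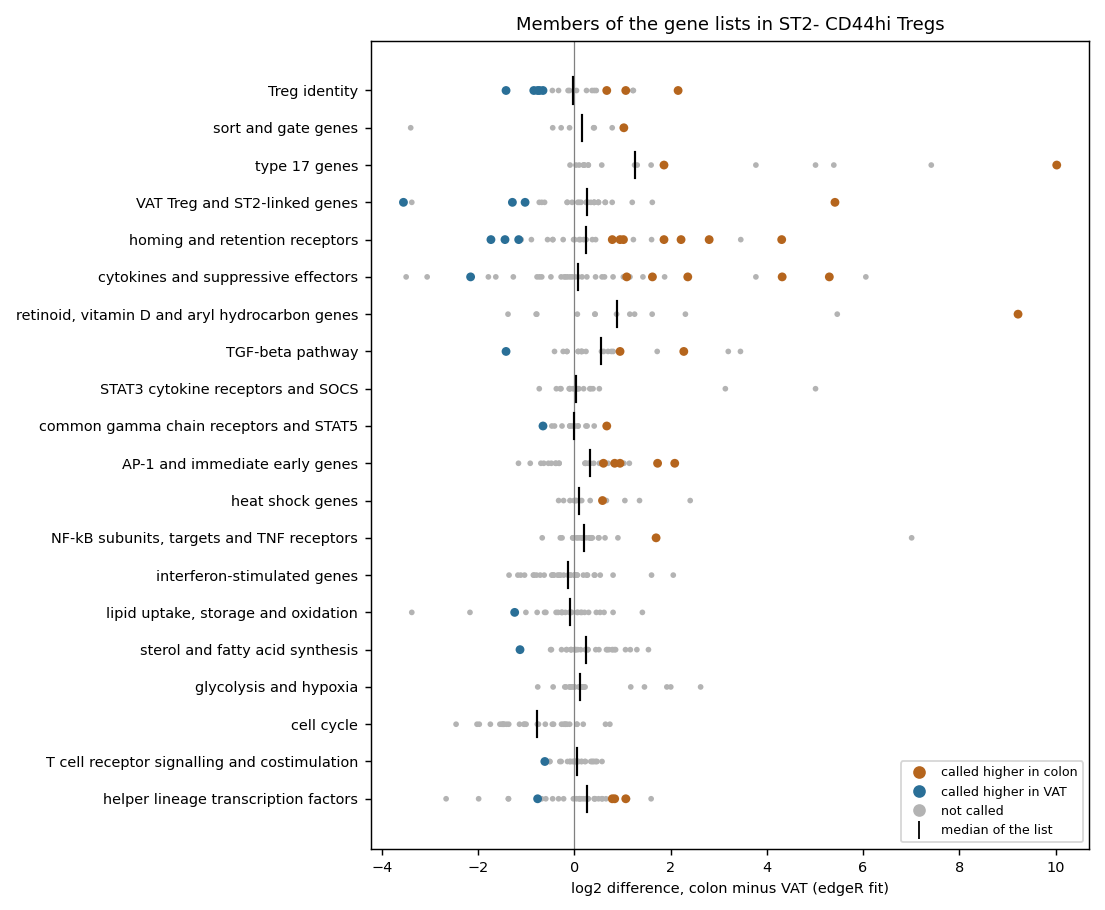
Log2 difference (colon minus VAT) of each tested member of the gene lists in ST2- CD44hi Tregs, with 1 point per gene, DEGs marked by colour and the median of each list as a line. The type 17 list had its median at 1.25 with 2 DEGs of 19, and the cell cycle list at -0.77 with 0 DEGs of 31.

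The Treg identity genes did not move together. Of 20 tested, 3 (15%) were higher in colon and 5 (25%) higher in VAT, beside 1.08% and 0.653% of all tested genes. The median log2 difference was -0.03. Foxp3 itself was 209 ± 13.9 CPM in colon and 157 ± 24.1 CPM in VAT, higher in the colon of all 5 mice and without overlap, but it did not pass (log2 0.42, SE 0.13, adjusted p 0.074). With the replicate block its adjusted p was 0.0461 and its fold still below 1.5. The chains of the IL-2 receptor moved apart. Il2ra, the high affinity chain CD25, was at 446, 355, 376, 401 and 566 CPM in colon and 376, 209, 218, 255 and 284 CPM in VAT (log2 0.67, SE 0.16, adjusted p 0.0119), higher in the colon of all 5 mice although the VAT library of mouse 1 was within the colon range. Il2rb, the signalling chain shared with the IL-15 receptor, was at 804, 475, 526, 517 and 442 CPM in colon and 769, 823, 846, 969.6 and 932 CPM in VAT (log2 -0.65, SE 0.16, adjusted p 0.0138), and the colon library of mouse 1 was far above the other colon libraries and within the VAT range. Both calls depended on single libraries: Il2ra lost its call without colon mouse 5 (adjusted p 0.0646), VAT mouse 2 (adjusted p 0.0603) or VAT mouse 3 (adjusted p 0.0518), and Il2rb without colon mouse 2 (adjusted p 0.0634) or colon mouse 5 (adjusted p 0.065).

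The other identity genes higher in VAT were Ikzf2, Lrrc32, Nrp1 and Lef1. Ikzf2, the transcription factor Helios, was at 519, 692, 775, 902 and 862 CPM in colon and 943, 1366, 1251, 1395 and 1239 CPM in VAT, without overlap (log2 -0.72, SE 0.16, adjusted p 0.00705), and was called in all 10 fits without 1 library. Lrrc32, the receptor GARP that docks latent TGF-beta on Tregs, was at 158, 107, 111, 235 and 55.3 CPM in colon and 460.3, 388, 300.3, 410.4 and 229.6 CPM in VAT (log2 -1.42, SE 0.38, adjusted p 0.0331), and the colon library of mouse 4 was just above the lowest VAT library, that of mouse 5. Nrp1, the receptor neuropilin-1, was at 112 to 326 and 294 to 551 CPM (log2 -0.84, adjusted p 0.0494), and Lef1, a factor of naive and central T cells, at 55.1 to 142 and 117 to 212 CPM (log2 -0.76, adjusted p 0.0331). In contrast to Ikzf2, these were called in 4 (Lrrc32), 2 (Nrp1) and 4 (Lef1) of the 10 fits without 1 library, with adjusted p up to 0.112, 0.167 and 0.171. Gpr83, a further Treg receptor, was higher in colon (62.6 ± 37.1 and 13 ± 18.1 CPM, log2 2.16, adjusted p 0.0172, called in 6 of the 10 fits, adjusted p up to 0.0707). Cd44, by which the cells were gated, was at 473 to 723 CPM in colon and 202 to 382 CPM in VAT (log2 1.03, SE 0.20, adjusted p 0.00105).

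Genes associated with VAT Tregs and ST2 mostly did not pass in these ST2- cells. Of 30 tested, 3 (10%) were higher in VAT (Ccr3, Gna15 and Rln3), beside 0.653% of all tested genes. In colon 1 (3.33%) was higher (Ccr1), beside 1.08%, and the median log2 difference was 0.26. Pparg, the lipid receptor that VAT Tregs depend on, was at 0, 13.4, 0.662, 4.35 and 0 CPM in colon and 19.9, 0, 49.7, 79.2 and 45.3 CPM in VAT, where mouse 2 had no count (log2 -3.38, SE 1.09, adjusted p 0.0949). Gna15, a G protein alpha subunit, was at 95.6, 106, 130.4, 134 and 124 CPM in colon and 195, 282, 229.9, 254 and 240.3 CPM in VAT, with every VAT library higher (log2 -1.02, adjusted p 0.00627). Rln3, the peptide hormone relaxin-3, was at 27.5 to 75.9 and 71.8 to 131 CPM (log2 -1.29, adjusted p 0.0338, called in 4 of the 10 fits without 1 library, adjusted p up to 0.119). Gata3 (226 ± 46 and 205 ± 19.9 CPM, adjusted p 0.718) and Klrg1 (337 ± 103 and 321 ± 244 CPM, adjusted p 0.981) did not pass. Among 28 genes of lipid uptake, storage and oxidation, 0 were higher in colon (1.08% of all tested genes) and 1 (3.57%) higher in VAT (0.653% of all tested genes). This was Cpt1a, which imports fatty acids into mitochondria for oxidation, at 158, 58.9, 90, 41.3 and 81.7 CPM in colon and 223, 185, 209, 169.5 and 228 CPM in VAT, without overlap (log2 -1.24, SE 0.28, adjusted p 0.00586). Of 30 sterol and fatty acid synthesis genes, 0 were higher in colon and 1 (3.33%, beside 0.653% of all tested genes) higher in VAT. This was Acss2, which makes acetyl-CoA from acetate (23.2 to 60.5 and 60.6 to 133 CPM, log2 -1.13, adjusted p 0.0425, called in 2 of the 10 fits without 1 library, adjusted p up to 0.132). In edgeR, voom and DESeq2 alike, 0 of 24 glycolysis and hypoxia genes (2 at an unadjusted p under 0.05) and 0 of 36 interferon-stimulated genes (5 at an unadjusted p under 0.05) passed. Over all tested genes the share that passed in edgeR was 1.73%.

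Immediate early genes are switched on soon after a cell is stimulated. Of 30 tested, 5 were higher in colon (Jun, Atf3, Klf6, Btg1 and Cd69) and 0 in VAT, beside 1.08% and 0.653% of all tested genes, with a median log2 difference of 0.33. Colon was kept warm with DTT and EDTA before digestion and VAT was not, and the part of this preparation was not tested. Jun, a subunit of AP-1, was at 466, 847, 671, 572 and 785 CPM in colon and 143 to 249 CPM in VAT (log2 1.73, SE 0.41, adjusted p 0.0112). Atf3, a stress-induced partner of AP-1, was at 336, 501, 350.2, 151 and 298 CPM in colon and 10.3, 60.2, 191, 106 and 17.8 CPM in VAT, with the VAT library of mouse 3 above the colon library of mouse 4 (log2 2.09, SE 0.47, adjusted p 0.0069). Klf6, a Krüppel-like factor, was at 1472, 1693, 1862, 1327 and 1892 CPM in colon and 450.4, 931, 964, 1274 and 993 CPM in VAT (log2 0.84, adjusted p 0.0029). The VAT library of mouse 1 was the lowest of all 10 in Klf6, Cd69, Jun and Atf3. Btg1, an antiproliferative gene, was at 489 to 577 CPM in colon and 229 to 532 CPM in VAT (log2 0.61, adjusted p 0.00806) and lost its call without colon mouse 1 (adjusted p 0.0249, fold below 1.5), VAT mouse 1 (adjusted p 0.0326, fold below 1.5) or VAT mouse 5 (adjusted p 0.0572). Among 27 NF-kB genes, 0 were higher in VAT (0.653% of all tested genes) and 1 (3.7%) higher in colon (1.08%), which was Cd83, an activation marker. It was at 858, 988, 703, 597 and 712 CPM in colon and 312, 169.6, 203, 309 and 191 CPM in VAT, without overlap (log2 1.70, SE 0.33, adjusted p 0.000986), and 3 NF-kB genes were called with the replicate block. In the TGF-beta list of 23, Furin and Skil, a feedback inhibitor of SMAD proteins (437 ± 102 and 226 ± 71.4 CPM, log2 0.95, adjusted p 0.00458), were higher in colon and Lrrc32 higher in VAT, with a median of 0.56. These were 8.7% and 4.35% of the list, beside 1.08% and 0.653% of all tested genes. Ldlrad4, which restrains TGF-beta signalling and was not on the list, was at 285, 259, 207, 275 and 314 CPM in colon and 191, 118, 66, 61.3 and 55 CPM in VAT, without overlap (log2 1.44, SE 0.23, adjusted p 5.65e-05).

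Chaperones and quality control factors of the endoplasmic reticulum were among the colon DEGs, and these were picked out after their values were seen. Creld2, a secreted chaperone, was at 142, 296, 160.2, 256 and 136 CPM in colon and 93.3, 58.8, 90.1, 51.9 and 74.3 CPM in VAT, without overlap (log2 1.42, SE 0.26, adjusted p 0.00035). Xbp1, the transcription factor of the unfolded protein response, was at 522, 562, 583, 504 and 386 CPM in colon and 282, 199, 340.2, 357 and 291 CPM in VAT (log2 0.80, SE 0.16, adjusted p 0.00175). Pdia4, a disulfide isomerase, was at 317 to 461 and 201 to 304 CPM (log2 0.78, adjusted p 0.00055), and Edem1, which directs misfolded proteins to degradation, at 414 to 508 and 226 to 349 CPM (log2 0.72, adjusted p 0.000996). In none of these did the groups overlap. Hspa5, the chaperone BiP, was at 885, 1130.4, 899.7, 992 and 929 CPM in colon and 562, 659, 604, 671 and 726 CPM in VAT, without overlap (log2 0.59, SE 0.11, adjusted p 0.000635). It was the only DEG of 16 heat shock genes (6.25% higher in colon, beside 1.08% of all tested genes). Hspa5 lay at the fold minimum, so that it fell under 1.5-fold with the replicate block (adjusted p 8.71e-06), without colon mouse 2 (adjusted p 0.00505), without colon mouse 4 (adjusted p 0.00199), without VAT mouse 1 (adjusted p 0.00399) or without VAT mouse 3 (adjusted p 0.00325). Transcripts of plasma cells, which are rich in these chaperones, also had higher means in colon. Jchain was at 1011, 1184, 1468, 984 and 1232 CPM in colon and 0, 1.37, 869, 1.12 and 1.02 CPM in VAT, and Mzb1 at 79.4 to 195 and 0 to 12.3 CPM. Jchain did not pass (adjusted p 0.111), but did when the VAT library of mouse 3 was left out (adjusted p 1.29e-07) or with voom (adjusted p 0.00253). Mzb1 did not pass (adjusted p 0.0765), but did with the replicate block (adjusted p 0.0163), with only the compared groups fitted (adjusted p 0.0139) or with voom (adjusted p 0.00034). Of the 8 tested B and plasma cell markers, voom called 6 and the edgeR test 0, with 5 at an unadjusted p under 0.05. In the VAT library of mouse 3, Xbp1 was at 340 CPM, Creld2 at 90.1 CPM and Pdia4 at 228 CPM, each within the range of the other VAT libraries. Jchain and the immunoglobulin gene Igkc (470 CPM) were near the colon level in that library. Igha (8.37 CPM) and Mzb1 (at most 12.3 CPM) were far below it. The library thus matched colon in only some plasma cell transcripts, and its values cannot settle the part of plasma cells. With epithelial and plasma cell markers as covariates, Creld2 (log2 0.63, adjusted p 0.617), Xbp1 (log2 0.47, adjusted p 0.562) and Pdia4 (log2 0.61, adjusted p 0.296) did not pass. These markers themselves differ between the tissues, and the part of plasma cells in the chaperone differences was not tested.

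Genes of this response often carry the endoplasmic reticulum stress element (ERSE), whose letters are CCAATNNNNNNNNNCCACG. It was searched on both strands in the 250 bases before the start of each gene (RefSeq, GRCm38.p6). It was found in 16 of the 10359 tested genes with a sequence (0.154%), in 2 of 104 DEGs higher in colon, which were Hspa5 and Creld2, and in 0 of 72 higher in VAT. The windows below, 5' to 3' on the strand that holds the motif with its fixed letters in capitals, are shown to set these 2 genes beside chaperone genes that hold the same letters and did not pass.
Hspa5: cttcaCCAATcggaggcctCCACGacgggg
Creld2: gtggaCCAATtgaggctcgCCACGagaagc
Hsp90b1: actcaCCAATcgtgcctcaCCACGcactct
Pdia6: agagaCCAATgaaaggcggCCACGgcgtgg
Calr: atgggCCAATgagggtcgaCCACGcgttgt
Canx: attgaCCAATcaccacgctCCACGaagaat
The windows lay at chr2:34772020-34772049 (Hspa5), chr15:88819514-88819543 (Creld2), chr10:86705528-86705557 (Hsp90b1), chr12:17266486-17266515 (Pdia6), chr8:84847070-84847099 (Calr) and chr11:50325794-50325823 (Canx), all upstream of the RefSeq start. By the GENCODE annotation used for the gene positions above, the Hspa5 gene begins further upstream (at 34771970), so its window lies within that gene. The motif of Creld2 is shared with Alg12, which starts on the other strand and was at 13.6 ± 10.3 CPM in colon and 23 ± 10.3 CPM in VAT (log2 -0.75, adjusted p 0.62). Hsp90b1 reached an adjusted p of 0.0291 with a fold below 1.5 (log2 0.52), whereas Pdia6 (log2 0.38, adjusted p 0.101), Calr (log2 0.19, adjusted p 0.37) and Canx (log2 -0.06, adjusted p 0.898) did not pass. Hsp90b1 held a second match further upstream (chr10:86705632-86705661), which is not shown. Dnajc3 (log2 0.17, adjusted p 0.697) and Syvn1 (log2 0.92, adjusted p 0.12) also held the motif, are not shown above and did not pass. Over the 16 genes the log2 differences ran from -0.75 to 3.66 with a median of 0.29, and 10 were above 0. The highest was that of Derl3, one of the B and plasma cell markers (91.1 and 7.14 CPM, adjusted p 0.24). A match of letters is a description and does not show that the site was used.

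After Itgb1, the genes higher in VAT with the smallest adjusted p were Cdc25b, Ripor2, Pglyrp1, S1pr1 and Zfp36l2. Cdc25b (chromosome 2, 131186949 to 131198497), a phosphatase that activates cyclin-dependent kinases, was at 50.4, 35.2, 48.3, 60.5 and 42.7 CPM in colon and 246, 146, 217, 166 and 122 CPM in VAT. Its groups did not overlap (log2 -1.92, SE 0.26, adjusted p 1.81e-06), and it was called under every alternative. Ripor2, a regulator of the lymphocyte cytoskeleton, was at 148, 99.9, 189, 246 and 207 CPM in colon and 348, 502, 379, 354 and 370.1 CPM in VAT (log2 -1.13, SE 0.18, adjusted p 6.39e-05). Zfp36l2, which promotes decay of AU-rich mRNAs, was at 211, 108, 113, 186 and 125 CPM in colon and 241, 389, 306, 348 and 311 CPM in VAT (log2 -1.10, SE 0.19, adjusted p 0.000173). Every VAT library was above every colon library for both. Pglyrp1, a peptidoglycan recognition protein, was at 38.2 to 137 and 142 to 262 CPM (log2 -1.23, adjusted p 8.67e-05), and Fam111a, a protease that restricts viral replication, at 42.9 to 94.7 and 137 to 159 CPM (log2 -1.18, adjusted p 0.000309). Further DEGs higher in VAT were Rasa3, which inactivates Ras (log2 -1.27), Gmfg, an actin regulator (log2 -1.02), Sorl1, a sorting receptor (log2 -1.39), Slc14a1, a urea transporter (log2 -1.75), Pts, an enzyme of tetrahydrobiopterin synthesis (log2 -0.74), Sema4a, a semaphorin (log2 -2.24), and Nudt19, a coenzyme A hydrolase (log2 -0.99), with adjusted p of 0.000266 (Gmfg) to 0.00238 (Nudt19). Atp1b3, a subunit of the sodium pump, was also higher in VAT (log2 -0.68, adjusted p 0.000663), but VAT mouse 2 was far above the rest, and without that library the fold was below 1.5 (adjusted p 0.0184).

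Among the largest folds in VAT, Cd200r4, an activating relative of the CD200 receptor with similar copies in the genome that could share reads, was at 4.64, 9.61, 4.63, 17.4 and 16.3 CPM in colon and 22.3, 75.2, 91.1, 156 and 111 CPM in VAT, without overlap (log2 -3.10, SE 0.66, adjusted p 0.00354). Cd7, a T cell surface glycoprotein, was at 2.56 to 13 and 14.5 to 66.3 CPM (log2 -2.48, adjusted p 0.0112) and lost its call without colon mouse 2 (adjusted p 0.0521) or VAT mouse 2 (adjusted p 0.0651). The remaining genes named by the rule for large folds held the call in few of the 10 fits without 1 library. They were Tktl1, a transketolase-like gene (log2 -3.21, 2 fits, adjusted p up to 0.125), 0610010F05Rik (log2 -2.53, 1 fit, adjusted p up to 0.101), Chsy1, a chondroitin synthase (log2 -2.31, 3 fits, adjusted p up to 0.109), E2f2, a cell cycle transcription factor (log2 -2.19, 2 fits, adjusted p up to 0.126), and Arsb, an arylsulfatase (log2 -1.83, 2 fits, adjusted p up to 0.109). The cell cycle list held no DEG in edgeR or DESeq2, while 9 of its 31 genes had an unadjusted p under 0.05 and voom called 5. Of the 31, 5 had a log2 difference above 0 and the median was -0.77. Mki67, the proliferation antigen Ki-67, was at 44.3 ± 37.6 CPM in colon and 122 ± 21.7 CPM in VAT (log2 -1.46, adjusted p 0.225). Of 29 genes of T cell receptor signalling and costimulation, 0 were higher in colon (1.08% of all tested genes) and 1 (3.45%) higher in VAT (0.653% of all tested genes). This was Prkcq, the kinase PKC-theta, at 238 to 371 and 324 to 487 CPM (log2 -0.61, adjusted p 0.0169). It was called in 5 of the 10 fits without 1 library (adjusted p up to 0.0603). Tbx21, the factor of type 1 helper cells, was at 26.1, 7.69, 28.5, 17 and 40.8 CPM in colon and 67, 67.7, 167, 234 and 225 CPM in VAT and did not pass, though all VAT libraries were higher (log2 -2.66, adjusted p 0.142).

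Genes without a single count in VAT formed a group of their own among the colon DEGs. Gbp2b, an interferon-inducible GTPase of a family whose members are similar in sequence, was at 55, 104, 68.2, 70.9 and 212 CPM in colon, at least 333-fold higher against a floor of 3 counts over the VAT libraries (adjusted p 0.000242). It was not among the 36 interferon-stimulated genes of the list. Npnt, a matrix protein, was at 12.7, 33.9, 44.4, 0.435 and 30.8 CPM in colon (at least 74.2-fold higher, adjusted p 0.00586). Others were epithelial. Of 13 tested markers of colon epithelium (20 listed) 7 were higher in colon, beside 1.08% of all tested genes. Of 4 tested goblet markers (8 listed) 3 were. Markers near 0 outside the colon could reach the minimum CPM only through colon libraries, so these shares were partly set by the filter. Lypd8, an anti-bacterial protein of enterocytes, was at 10.4, 551, 78.1, 1.3 and 64.1 CPM in colon, and Phgr1, a gut epithelial gene, at 5.79, 119, 23.2, 1.74 and 25.8 CPM. Ehf, an epithelial transcription factor, was at 26.7, 104, 1.32, 0.435 and 1.26 CPM, and Zg16, a lectin of goblet cells, at 19.7, 41, 190, 16.5 and 49 CPM. Except for Zg16, which was highest in mouse 3, they were highest in the colon library of mouse 2, that with the highest epithelial sum. Their lower bounds were 426-fold (Lypd8), 107-fold (Phgr1), 82.3-fold (Ehf) and 194-fold (Zg16). Without colon mouse 2, Phgr1 (adjusted p 0.0543) and Ehf (adjusted p 0.0835) did not pass and 2 epithelial markers were called, without VAT mouse 2 Phgr1 did not pass either (adjusted p 0.0516), and with the replicate block Ehf did not pass (adjusted p 0.0506). Ehf was called in 4 and Phgr1 in 8 of the 10 fits without 1 library. Kit, a receptor of mast cells and innate lymphoid cells, was at 16.8, 30.7, 43, 6.52 and 11.9 CPM in colon and 0, 0, 0.985, 0 and 0.509 CPM in VAT (adjusted p 0.00249), and was the only DEG of 8 tested markers of CD8 T, NK and innate lymphoid cells (12.5% higher in colon, beside 1.08% of all tested genes).

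The same tissues were compared in ST2+ CD44hi Tregs of these mice, which are separate libraries (3 of colon and 5 of VAT, since 2 colon libraries had too few counts). There, 427 genes (3.24%) were higher in colon and 91 (0.691%) higher in VAT, with 2372 genes at an unadjusted p under 0.05. Of the 142 DEGs higher in the colon of ST2- Tregs, 128 (90.1%) had a log2 difference above 0 in ST2+ Tregs, beside 54.5% of all tested genes, and 62 (43.7%) were called there in the same direction, which were 14.5% of the ST2+ list. Of the 86 higher in VAT, 74 (86.0%) had the same sign, beside 44.6% of all tested genes, and 12 (13.95%) were called, 13.2% of the ST2+ list. A gene with counts in colon alone was tested only if ST2+ colon libraries held it, since 5 libraries are under 10% of 67. For such genes the filter fixed the sign in ST2+ Tregs, so the share over all tested genes is not a like comparison. Gpr15 was at 294 ± 30.8 CPM in ST2+ colon Tregs (SD, n = 3) and 18.5 ± 14 CPM in ST2+ VAT Tregs (SD, n = 5), a log2 difference of 3.97 (adjusted p 9.34e-06). Cd83 was at 873 ± 64 and 169 ± 97.2 CPM (log2 2.37, adjusted p 1.33e-05), Klf2 at 337 ± 16 and 135 ± 34.4 CPM (log2 1.32, adjusted p 2.47e-06), and Foxo1 at 213 ± 32.6 and 143 ± 28.5 CPM (log2 0.58, adjusted p 0.0231, fold below 1.5). Cpt1a was lower in colon in this population as well (79.8 ± 17.9 and 179 ± 27.9 CPM, log2 -1.17, adjusted p 0.0307). Epithelial sums of the ST2+ colon libraries were 372 to 3589 CPM and macrophage sums 3497 to 3740 CPM, above those of every ST2- colon library for the macrophages.

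**Figure D4:**
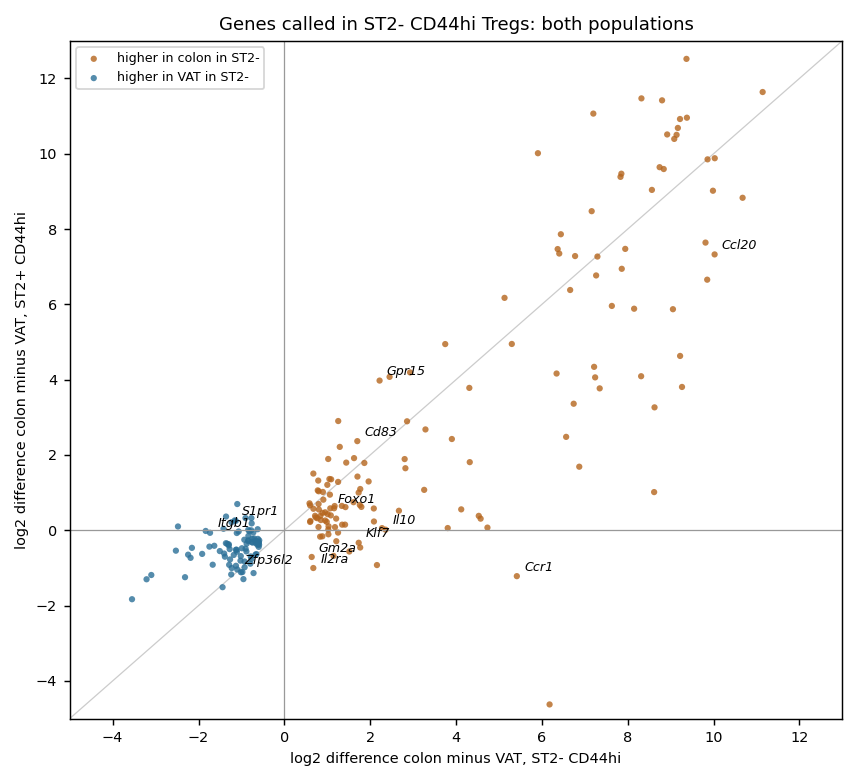
Log2 difference (colon minus VAT) in ST2- CD44hi Tregs against the same difference in ST2+ CD44hi Tregs for the 228 DEGs of the ST2- comparison, with 1 point per gene. Of the 142 higher in colon 128 had the same sign in both populations, while Il10, Ccr1, Klf7 and Itgb1 lay far from the diagonal.

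Whether the tissue difference itself differed between ST2- and ST2+ Tregs was tested with an interaction term. It was called for 29 genes (0.22%), 8 with a more positive and 21 with a more negative difference in ST2- than in ST2+ Tregs, and 1225 genes had an unadjusted p under 0.05. Il2ra had the smallest adjusted p. Its mean was 429 ± 83.7 CPM in ST2- colon and 268 ± 67.4 CPM in ST2- VAT Tregs, but 418 ± 19.3 CPM in ST2+ colon and 837 ± 298 CPM in ST2+ VAT Tregs. CD25 transcripts were thus higher in colon in ST2- cells and higher in VAT in ST2+ cells (adjusted p 0.00058), and the interaction was 1.68 on the log2 scale (SE 0.25, adjusted p 0.000105). Il10 was at 496 ± 178 CPM in ST2+ colon and 490.3 ± 197 CPM in ST2+ VAT Tregs, so its difference was 0.02 there and the interaction 2.34 (SE 0.54, adjusted p 0.034). The lowest of the 4 group means was that of ST2- VAT, at 133 ± 54.5 CPM. For Ccr1 the mean was also lowest in ST2- VAT, with 139 ± 28.8 and 324 ± 89.4 CPM in ST2+ colon and VAT and 5.31 ± 6.56 CPM in ST2- VAT (interaction 6.63, SE 1.18, adjusted p 0.00389). Klf7 (70.5 ± 14.2 and 88.9 ± 33.2 CPM in ST2+ colon and VAT, interaction 2.06, adjusted p 0.00794), Gm2a, a lysosomal activator protein (412 ± 76.1 and 674 ± 129.6 CPM, interaction 1.35, adjusted p 0.00794), and Tmem64, a membrane protein of calcium signalling (307 ± 70.1 and 601 ± 89.2 CPM, interaction 1.12, adjusted p 0.00794), also had a more positive difference in ST2- Tregs. Tmem64 did not pass in ST2- Tregs (394 ± 41.8 and 355 ± 84.5 CPM, adjusted p 0.725), and Gm2a was a DEG there (log2 0.64, adjusted p 0.0378) in 3 of the 10 fits without 1 library (adjusted p up to 0.154).

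In the other direction, Itgb1 was 522 ± 72.7 CPM in ST2+ colon and 546 ± 176 CPM in ST2+ VAT Tregs, a log2 difference of -0.07, against -1.73 in ST2- Tregs (interaction -1.66, SE 0.31, adjusted p 0.00415). The ST2- VAT libraries were above all 3 other groups. S1pr1 was 276 ± 38.7 and 230 ± 88.4 CPM in ST2+ colon and VAT (interaction -1.42, SE 0.29, adjusted p 0.0089), and Pglyrp1 105 ± 34.5 and 89.8 ± 23.3 CPM (interaction -1.45, adjusted p 0.0124). For 16 of the 21 genes with a negative interaction, ST2+ Tregs were called higher in colon while ST2- Tregs were not. Cd96, an inhibitory receptor, was 351 ± 86 and 74 ± 56.1 CPM in ST2+ colon and VAT but 424 ± 40.5 and 315 ± 54 CPM in ST2- (interaction -1.80, adjusted p 0.00794), and Slamf6, a receptor of less differentiated T cells, 251 ± 47 and 138 ± 58.7 CPM but 371 ± 65.2 and 527 ± 115 CPM (interaction -1.37, adjusted p 0.00794). Nsg2 and Lair1, an inhibitory collagen receptor, were low. Nsg2 had no count in any ST2+ VAT library, and Lair1 was at 8.51, 0, 26.1, 7.81 and 30.5 CPM in ST2- VAT, at most 0.87 CPM in ST2- colon, 16.4 to 80.8 CPM in ST2+ colon and at most 0.412 CPM in ST2+ VAT (adjusted p of the interaction 0.00415). Macrophage and dendritic cell marker sums were 3497 to 3740 CPM in ST2+ colon and 301 to 847 CPM in ST2+ VAT while the ST2- ranges overlapped, and their part in these interactions was not tested. The interaction rests on 3 ST2+ colon libraries, and with the groups of this comparison fitted alone 2 genes remained past the threshold.

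**Figure D5:**
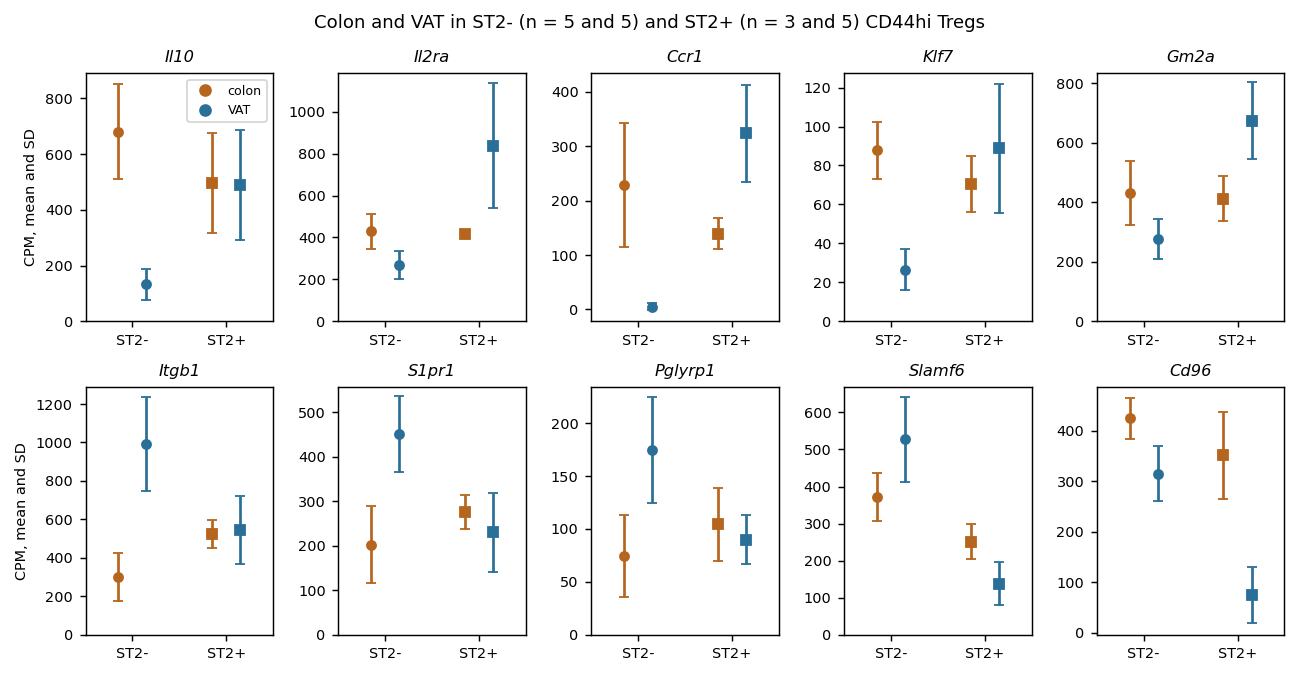
CPM of genes with an interaction of tissue and ST2, as the mean and SD of each group, for colon and VAT in ST2- (n = 5 and 5) and ST2+ (n = 3 and 5) CD44hi Tregs. Il10 was lowest in ST2- VAT (70.8 to 218 CPM) and Itgb1 highest there (826 to 1422 CPM).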

How the data were processed

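Per the labels and the study's methods, RNA of the sorted cells was amplified with the SMART-Seq v4 kit, which keeps no strand and adds no molecular identifiers, so counts are reads and not molecules. The authors sequenced NexteraXT libraries, processed reads with CASAVA 1.8.2, STAR, Picard and SAMtools, and deposited raw counts per gene made with HTSeq 0.4.1 on GRCm38. The counting mode is not given in the sources used here.

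From the deposited counts, edgeR 4.0.16 (R 4.3.3) fitted 1 term per group over all 67 libraries above 1000000 counts, for protein-coding genes that reached 1 CPM in 10% or more of these libraries, with TMM factors and the quasi-likelihood test. Adjusted p are Benjamini-Hochberg values over 13173 genes. CPM use the counts of tested genes. SE is the log2 difference over the square root of F. On simulated counts the fit was tested before use. The members and lists were chosen with earlier results of these data known. Named genes were the 15 per direction with the smallest adjusted p, the 10 with the largest change among genes of at least 20 CPM without overlap, list members (1 gene of the lists is not reported here), and 5 per direction with an interaction. The mouse number pairs the libraries because 1 animal gave both. Deviations from the group means correlated by 0.0189 to 0.185 within mice (mean 0.106 over 7559 genes) and -0.0259 between mice. No library was a duplicate (lowest chi-square per degree of freedom 9.58 over 20 pairs). Alternatives were voom, DESeq2 1.42.0, other filters and scalings, the replicate block, covariates and left-out libraries.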

Additional observations from a re-analysis of the deposited data

Results flagged for a closer look

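In 22 of 180 groups of 5 values, 1 library lay further from the rest than Dixon's 95% limit allows. Chance gives about 1 in 20 where values are independent and normally spread. CPM need not be so spread, and some marker sums share genes with single items, so 22 of 180 cannot be set against that rate. In the colon library of mouse 2 this held for the summed markers of epithelium (3251 CPM), goblet cells (3278 CPM) and macrophages and dendritic cells (1962 CPM), and for Pde4b (584 CPM), Lypd8 (551 CPM), Phgr1 (119 CPM) and Ehf (104 CPM). The colon library of mouse 3 was high in Zg16 (190.0 CPM) and Ahrr (68.8 CPM), that of mouse 1 in Il2rb (804 CPM) and that of mouse 4 in Prkcq (371 CPM). In VAT, mouse 3 was high in the summed markers of B and plasma cells (1079 CPM), fibroblasts and endothelium (749 CPM) and adipocytes (227 CPM) and in Jchain (869 CPM). The VAT library of mouse 2, with the fewest cells, was high in Itgb1 (1422 CPM), Atp1b3 (885 CPM), Ripor2 (502 CPM), Pglyrp1 (262 CPM) and Gpr55 (38.3 CPM). Fam111a was high in VAT mouse 1 (159 CPM), and Arsb was low in VAT mouse 5 (36.1 CPM). All of these values are highest or lowest of their group, and none was removed from the tests.

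The tissue difference was compared between ST2- and ST2+ Tregs by an interaction term in edgeR over all genes. Its log2 values are the colon minus VAT difference in ST2- minus that in ST2+ Tregs. It was 1.68 for Il2ra (adjusted p 0.000105), -1.66 for Itgb1 (0.00415), 6.63 for Ccr1 (0.00389) and -13.99 for Lair1 (0.00415). At an adjusted p of 0.00794 it was 1.12 for Tmem64, -1.37 for Slamf6, -1.80 for Cd96, 2.06 for Klf7, 1.35 for Gm2a and -6.72 for Nsg2. For S1pr1 it was -1.42 (adjusted p 0.0089) and for Il10 2.34 (adjusted p 0.034). The fitted values of Lair1 and Nsg2 rest on groups at or near 0 counts and give no size of change.

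Outside the tested genes, Igha was at 1025.5 CPM in the lowest colon library against 19.1 CPM in the highest VAT library.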

How the results depend on the processing

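Genes higher in colon in ST2- Tregs numbered 142, 86 to 145 when 1 library and 60 to 124 when all libraries of 1 mouse were left out. They were 360 with voom and quality weights, 45 with glmTreat (fold tested against 1.5), 72 with only the compared groups fitted and 64 with these and the replicate block. Genes higher in VAT numbered 86, 43 to 93 with 1 library and 24 to 88 with 1 mouse left out, 6 with glmTreat, 26 with only the compared groups, 25 with these and the block, and 27 with all 70 libraries. Alternatives chosen after seeing the data gave 27 and 14 without the colon libraries of mice 2, 3 and 5, 79 and 34 without colon mouse 2 and VAT mouse 3, and 13 and 11 with epithelial and plasma cell markers as covariates. Under those covariates Mzb1 changed sign (log2 -1.99, adjusted p 0.77, not called in either). The interaction was called for 29 genes, and for 2 to 25 with 1 mouse left out, 98 with voom, 74 with DESeq2, 6 with glmTreat, 2 with only the compared groups, 4 with these and the block, and 17 with all 70 libraries. In ST2+ Tregs the 427 genes higher in colon were 77 to 302 with 1 mouse left out, 1001 with voom, 205 with glmTreat, 190 with 1 CPM required in 50% of libraries, 215 with only the compared groups and 193 with these and the block. The 91 higher in VAT were 8 to 69 with 1 mouse left out, 150 with voom and 6 with glmTreat. The cause of these changes was not tested.

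With mouse as replicate block and all libraries, the counts were 157 and 103 in ST2-, 601 and 135 in ST2+ and 32 for the interaction, and of the named genes the block changed the call of Icos, Mzb1, Hspa5, Ehf and Lair1 (Lair1 lower in colon, adjusted p 0.0453). Of the 84 named genes that were called, 8 (Foxo1, Pde4b, Lgmn, Ldlrad4, Furin, Zg16, Itgb1 and Cdc25b) kept the call under each alternative that tested them. Over 96 named genes and their alternatives, 2195 of 2867 values kept direction and call, 640 lost the call, 31 gained it and 1 changed sign. With 5 libraries of at most 220 cells each, genes of few counts vary widely between libraries, and a p that misses the threshold does not show equal levels.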
